A study of Mus musculus with 6 samples.

Results

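The subject is 4 genes of the phagocyte NADPH oxidase in mouse bone marrow-derived macrophages, Cybb, Cyba, Ncf1 and Ncf4. They were found by gene symbol in the deposited tables, which list 24394 symbols, and all 4 were among the 10352 symbols that were tested because their mean over the libraries was 1 FPKM or more. FPKM is the number of sequenced fragments (here called read pairs) per kilobase of transcript, scaled to the size of the library, so levels of different genes can be compared. Macrophages were grown from marrow monocytes of C57BL/6 mice with 50 ng/ml of M-CSF, the macrophage growth factor, for 7 days. The labels give the age as postnatal day 28. There were 3 control cultures and 3 cultures kept for 24 h with cartilage fragments at 5 per macrophage. The fragments had been crushed from femoral head cartilage of the same kind of mouse. The sources name no genetic change in either group. The comparison asks whether contact with cartilage debris changes macrophage transcripts. The sources name the cultures as separate samples but not as separate animals, so p-values measure the spread between these 6 samples.

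The phagocyte NADPH oxidase moves electrons from NADPH across a membrane to oxygen and makes superoxide, the first of the reactive oxygen species that phagocytes release into a phagosome or to the outside. Its catalytic core, flavocytochrome b558, sits in the membrane and is a pair of proteins, gp91phox (NOX2) from Cybb and p22phox from Cyba, each of which needs the other to be stable. The cytosolic proteins p47phox (Ncf1, the organizer) and p40phox (Ncf4, which binds phosphatidylinositol 3-phosphate on phagosomes) join the core upon activation together with a Rac GTPase. In humans, inherited loss of any of these phox proteins causes chronic granulomatous disease. Activity is set largely by phosphorylation and assembly, which RNA does not measure.

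The deposited values rest on 699237 to 776371 read pairs per library, as estimated from the coverage beside each FPKM. This is far fewer than the mapped reads that the study's methods name, and the reason was not tested. Xist, the transcript of the silenced X chromosome of female cells, had 351 to 418 read pairs per 1000000 in the library (RPM) in every library, and the genes Uty, Kdm5d, Ddx3y and Eif2s3y of the Y chromosome had 0, although the study's methods name male mice. Of the 9 macrophage markers all 9 were detected, at summed levels of 29364 to 37589 RPM in controls and 30481 to 39291 after exposure. Most of that sum was Lyz2, at 16299 to 23997 read pairs, while Adgre1 (log2 fold change 0.58, adjusted p = 1.5e-10 by limma), Itgam (0.26, adjusted p = 0.00011) and Cd14 (0.64, adjusted p = 5.9e-05) were called higher after exposure in the locus read pairs described below, and 0 of the 9 in FPKM. Over all tested genes, 1.65% were called higher in locus read pairs and 0.86% lower. Neutrophils carry the same oxidase, and 10 of 11 neutrophil markers were found. Their sum was 681 to 707 RPM in controls and 543 to 708 after exposure. Of that list Elane and Mpo had at most 3 read pairs in any library, but Mmp8 had 191 to 289, S100a9 74.2 to 111, Ltf 41.4 to 64.4 and Ngp 34.1 to 56.6. Mmp8 was called lower in locus read pairs (log2 fold change -0.34, adjusted p = 0.041 by limma), which held in 2 of the 6 fits that leave out a library. Summed fibroblast markers were at 724 to 789 RPM in controls and at 485 to 550 after exposure, carried by Col1a1 and Col1a2. Both were called lower in locus read pairs (log2 fold change -0.72 and -0.41, adjusted p = 2.3e-06 and 0.0033 by limma). Chondrocyte markers summed to 8.15 to 17.3 and 4.17 to 15.9 RPM, with Matn1, Matn3, Col9a1, Hapln1 and Lect1 at 0 in all libraries. Monocyte markers summed to 104 to 121 and 116 to 150 RPM, within which Ly6c2 was called higher in locus read pairs (log2 fold change 2.00, adjusted p = 1.3e-06 by limma) and Ccr2 was not past the threshold (-0.78, adjusted p = 0.066). Summed B cell, T cell and dendritic cell markers stayed at or below 6.45 RPM and the erythroid markers were at 0. From these same libraries the study lists Adgre1, Cd14 and Ly6c2 as raised and Mmp8, Col1a1 and Col1a2 as lowered. The part of these other cell types in the results below was not tested. In such bulk samples fewer cells of a type and less RNA per cell cannot be told apart.

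All 4 subunit genes were strongly expressed in both groups, and their order was the same in all 6 libraries. Cyba had the highest FPKM, followed by Cybb, Ncf1 and Ncf4. In control libraries the means were 806 ± 50.2 FPKM for Cyba, 459 ± 24.3 for Cybb, 220 ± 8.67 for Ncf1 and 101 ± 15.6 for Ncf4 (SD, n = 3). After exposure they were 816 ± 192, 558 ± 40.9, 227 ± 7.68 and 132 ± 23.8 FPKM in the same order (SD, n = 3). Among the 10352 tested genes of a library Cybb ranked between 132 and 160, Cyba between 69 and 129, Ncf1 between 286 and 313 and Ncf4 between 448 and 760. The ranges of neighbours in this order did not overlap in either group. Within cartilage fragment replicate 1, however, Cyba at 605 FPKM (Cufflinks 95% interval 513 to 696) and Cybb at 583 FPKM (550 to 616) could not be separated.

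**Figure D1:**
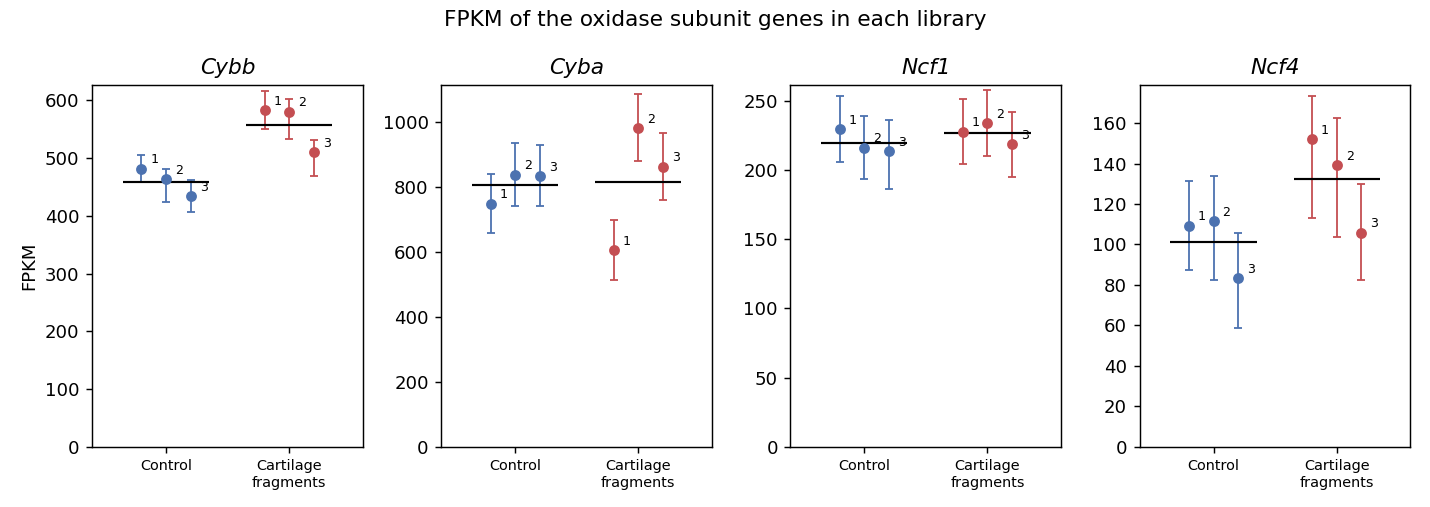
FPKM (vertical axes, from 0) of the 4 oxidase subunit genes in each control (blue) and cartilage fragment (red) library, with the Cufflinks 95% interval as the error bar, the replicate number beside each point and the group mean as a line. Cybb is above every control in all 3 exposed libraries, Ncf1 is level, and Cyba in cartilage fragment replicate 1 lies apart at 605 FPKM.

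Bases upstream of the gene start are shown for the 3 genes with an entry in the RefSeq promoter table (GRCm38.p6, the coordinates of mm10), because their make-up differs between the 2 partners of the membrane core. Each run is the 200 bases before the start, 5′ to 3′ on the strand of the gene, and no annotated exon lies in any of them. Capitals mark matches on either strand to the PU.1 core GAGGAA, the CCAAT box, the GC box GGGCGG, the TATA box TATAAA, the AP-1 motif TGANTCA and the core of the interferon-stimulated response element (GAAA, NN and GAAA joined), none of which overlap here.
Cybb, chrX:9469325-9469524, minus strand: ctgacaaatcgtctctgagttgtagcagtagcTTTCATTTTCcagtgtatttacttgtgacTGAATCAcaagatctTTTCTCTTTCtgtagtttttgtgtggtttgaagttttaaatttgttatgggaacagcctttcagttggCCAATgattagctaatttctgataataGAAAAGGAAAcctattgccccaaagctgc
Cyba, chr8:122432941-122433140, minus strand: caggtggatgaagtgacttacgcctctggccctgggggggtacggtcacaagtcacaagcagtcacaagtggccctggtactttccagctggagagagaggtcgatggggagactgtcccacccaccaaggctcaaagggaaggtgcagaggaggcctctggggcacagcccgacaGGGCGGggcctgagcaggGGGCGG
Ncf1, chr5:134229626-134229825, minus strand: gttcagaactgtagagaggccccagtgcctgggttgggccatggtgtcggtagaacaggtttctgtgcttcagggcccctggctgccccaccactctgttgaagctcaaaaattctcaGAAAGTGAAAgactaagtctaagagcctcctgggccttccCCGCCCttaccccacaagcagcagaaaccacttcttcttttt

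The Cybb run had 36.5% G and C, that of Cyba 64% and that of Ncf1 53.5%, against a median of 53% over all 32851 promoters of the table. Upstream of Cybb lay 3 matches to the interferon-stimulated element core, at bases 29 to 20, 124 to 115 and 168 to 159 before the start, one of them on the strand of the gene, and 1 match stood upstream of Ncf1 at bases 82 to 73. This motif was in 2.27% of all promoter windows of that length. Cybb also had CCAAT at bases 56 to 52 before the start (29.3% of all windows) and TGANTCA at bases 139 to 133 (5.48%). GGGCGG occurred at bases 24 to 19 and 6 to 1 before the start of Cyba and on the other strand at bases 42 to 37 of Ncf1 (31% of all windows, 10200 of them). Neither GAGGAA (19% of windows, 6250 of them) nor TATAAA (9.96%) was found in these 3 runs.

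Cybb, the electron-carrying subunit, was higher after exposure to cartilage fragments in all 3 libraries. Its FPKM in control replicates 1 to 3 was 482, 463 and 434, and in cartilage fragment replicates 1 to 3 it was 583, 580.1 and 511. The lowest exposed library lay above the highest control, so the groups did not overlap. The same held for 8.73% of all tested genes. The fold change was 1.21 (log2 fold change 0.28, SE 0.08, 95% interval 0.09 to 0.47), and in the limma test on FPKM it did not pass (adjusted p = 0.514). In that test 0 of the 4 subunit genes were past an adjusted p of 0.05, against 0.145% of tested genes higher and 0.0386% lower. At an unadjusted p under 0.05, 1 of the 4 (Cybb) stood against 6.52% of tested genes. Cybb is among the genes that the study lists as raised in these same libraries, so its direction here is not independent evidence.

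Read pairs at the whole locus gave a smaller SE than FPKM for Cybb, Cyba and Ncf4, and 0.07 in both for Ncf1. For each gene these join the read pairs on its named transcripts with those on transcripts that Cufflinks had assembled at the locus in that library alone, which carry no gene symbol and are missing from the FPKM above. This count was chosen after the values were seen. Cybb had 1696, 1591 and 1461 read pairs in the controls and 1991, 1898 and 1621 after exposure, none on assembled transcripts. As RPM these were 2185, 2102 and 1967 against 2641, 2626 and 2319. Here too the groups did not overlap, and on this measure the limma test was past the threshold (log2 fold change 0.28, SE 0.05, 95% interval 0.17 to 0.38, adjusted p = 0.0029). Cybb was the 1 subunit gene of 4 so called, where 1.65% of tested genes were called higher and 0.86% lower. Without the assembled transcripts of other genes, read pairs gave Cybb the same values and log2 fold change, an SE of 0.07 and an adjusted p of 0.413 by limma, so the call depends on how the other genes were counted. Of the 9 macrophage markers, 3 (Adgre1, Itgam and Cd14) were called higher on the same measure, and their part in the Cybb result was not tested. The adjusted p stayed between 2.2e-05 and 0.0296 when each library was left out in turn. The spread between libraries, 5.29% of the mean in controls and 7.19% after exposure, was above the counting error of 2.51% and 2.33%. The size of the change was small for a called gene, as 19 of the 171 genes called higher had a smaller one. At such depth calls were common. Of 46 tested genes with a mean of at least 1000 read pairs, 13 were called higher and 9 lower, 47.8% in all.

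**Figure D2:**
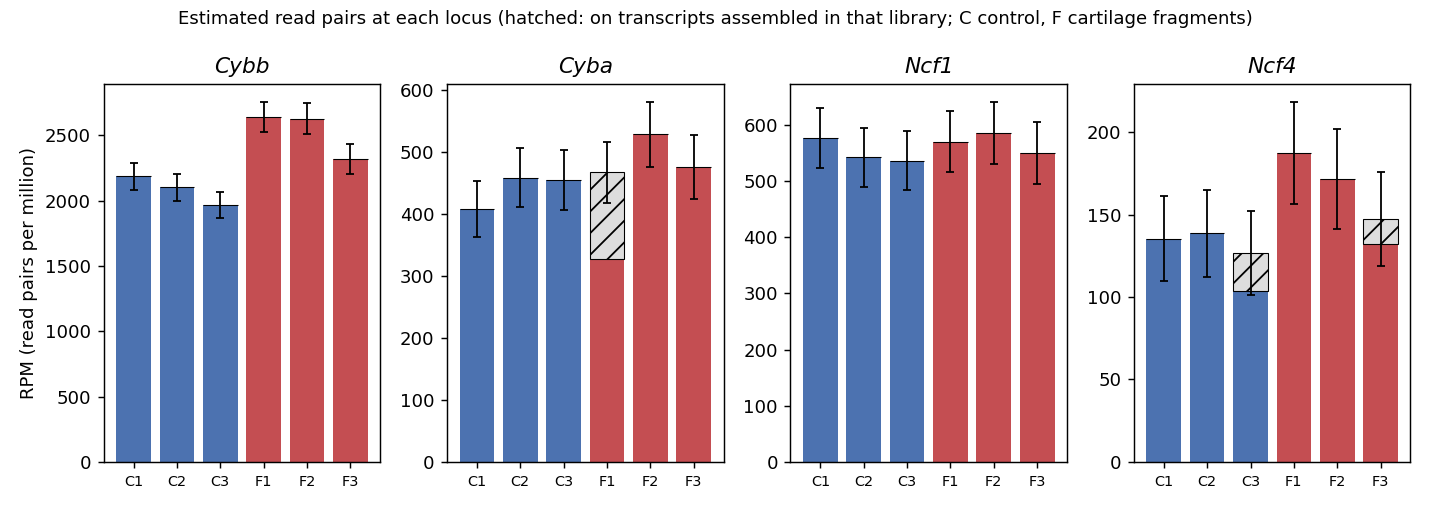
Estimated RPM (vertical axes, from 0) at the locus of each subunit gene in control (blue) and cartilage fragment (red) libraries. The hatched part lies on transcripts assembled in that library alone, and error bars are approximate 95% counting intervals of the total. With the hatched part included, exposed libraries are above all controls for Cybb, Cyba and Ncf4 and overlap them for Ncf1.

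All Cybb values come from 1 reference transcript, NM_007807 of 4750 bases at chrX:9435254-9469324 on mm10, minus strand. The GENCODE annotation extends the gene to base 9487771 through another transcript, which these files do not list under this symbol. Cybb is X-linked, and Xist, which lies on the same chromosome, had 351, 363 and 366 RPM in controls and 418, 399 and 417 after exposure. Exposed libraries were thus above all controls for Xist, as for 9.15% of tested genes. A link between the Xist and Cybb values was not tested.

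Cyba, the membrane partner that anchors the cytosolic organizer, showed no detectable change in FPKM. Control replicates 1 to 3 had 748, 837 and 832 FPKM, and the exposed libraries had 605, 980 and 862. Exposed libraries thus held both the lowest and the highest value, and the groups overlapped. The log2 fold change was -0.01 (SE 0.18, 95% interval -0.47 to 0.45, adjusted p = 0.997 by limma), an interval that leaves room for changes in either direction larger than that of Cybb. Leaving out cartilage fragment replicate 1 turned the log2 fold change to 0.19, and leaving out control replicates 2 or 3 turned it to 0.02 and 0.01.

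The low value of that library went with assembled transcripts. In cartilage fragment replicate 1, Cufflinks had listed 2 transcripts without a symbol at the Cyba locus, of 314 bases at chr8:122424771-122426186 with about 57.3 read pairs and of 456 bases at chr8:122425090-122432940 with about 48.02, beside 247 on the reference transcript. The FPKM of the 314-base transcript, 792, lay above its own Cufflinks 95% interval of 196 to 431. Its number of read pairs is thus uncertain. The other 5 libraries had no assembled transcripts there. With these 105 read pairs included, Cyba had 317, 347 and 338 read pairs in the controls and 352, 382 and 333 after exposure, which are 408, 458 and 455 RPM against 467, 528 and 476. The groups then did not overlap, which rests on the read pairs given to the 314-base transcript. The same was the case for 9.15% of tested genes with the exposed group higher. The log2 fold change was 0.15 (SE 0.07, 95% interval 0.00185 to 0.31). It was not past the threshold (adjusted p = 0.42 by limma), and the highest control and the lowest exposed library were closer to each other than their counting error of about 5.47% and 5.3% each. Where the FPKM of the assembled transcripts was added in place of their read pairs, the log2 fold change was 0.48 (adjusted p = 0.635), since the FPKM of a transcript of 314 bases is scaled up by its short length.

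Of the 2 reference transcripts of Cyba, both at chr8:122424771-122432940, NM_007806 of 759 bases held all of the FPKM in all 6 libraries. NM_001301284, of 675 bases, was listed at 0 in each, with upper bounds of 3.97 to 6.18 FPKM. The transcripts differ by exon 4 of 84 bases, chr8:122426936-122427019. The annotation also places Cyba inside Gm20388, a long read-through gene on the other strand.

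Ncf1, the organizer, was the steadiest of the 4. It had 229.8, 216 and 214 FPKM in the controls and 228, 234 and 219 after exposure, with values of the groups interleaved. The log2 fold change was 0.05 (SE 0.07, 95% interval -0.12 to 0.21, adjusted p = 0.837 by limma), and in locus read pairs it was 0.04 (SE 0.07, 95% interval -0.09 to 0.18, adjusted p = 0.872). The upper bounds correspond to a rise of 1.15-fold in FPKM and 1.13-fold in read pairs. Libraries of a group differed by 3.94% and 3.39% of the mean FPKM, below the counting error of 4.89% and 4.92%. All FPKM lay on NM_010876 (2722 bases, chr5:134220259-134229625, minus strand), and NM_001286037 and NR_104383 were listed at 0 in all libraries. The 3′ end of Ncf1 shares 4303 bases with Gtf2ird2 on the opposite strand, which had at most 3.59 FPKM. The libraries were made with a stranded kit, and whether Cufflinks used the strand is not given in the sources used here.

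Ncf4, the phosphoinositide-binding subunit, had the lowest level and the largest point estimate. Its FPKM was 109, 112 and 83.5 in controls and 152, 139 and 106 after exposure. Cartilage fragment replicate 3 lay below control replicates 1 and 2, so the groups overlapped. The fold change of 1.30 (log2 fold change 0.38, SE 0.18, 95% interval -0.08 to 0.83) was not past the threshold (adjusted p = 0.782 by limma). Assembled transcripts were listed at the locus in control replicate 3, with 17.3 read pairs, and in cartilage fragment replicate 3, with 10.8. Including these, Ncf4 had 105, 105 and 94.3 read pairs in controls and 142, 124 and 103 after exposure. As RPM they were 135, 139 and 127 against 188, 172 and 147, and the groups did not overlap. The log2 fold change of 0.33 (SE 0.12, 95% interval 0.09 to 0.57) still missed the threshold (adjusted p = 0.193 by limma). With about 100 read pairs a library, the counting error alone was 9.93% in controls and 9.02% after exposure, and the pooled counts gave a standard error of 0.11 on the log2 scale, against 0.03 for Cybb. Its transcript, NM_008677, has 1454 bases at chr15:78244811-78262580 on the plus strand, and the promoter table has no entry for it.

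In locus read pairs all 4 subunit genes had a log2 fold change above 0, with a median of 0.22, against a median of 0.0046 and 50.6% above 0 over all tested genes, and 3 of the 4 were higher without overlap between groups, as were 9.15% of tested genes. For Cyba the lack of overlap rests on the uncertain read pairs of the 314-base assembled transcript in cartilage fragment replicate 1. In FPKM 3 of 4 were above 0, the median was 0.16 against 0.02, and 1 of 4 was higher without overlap, as were 8.73% of tested genes.

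**Figure D3:**
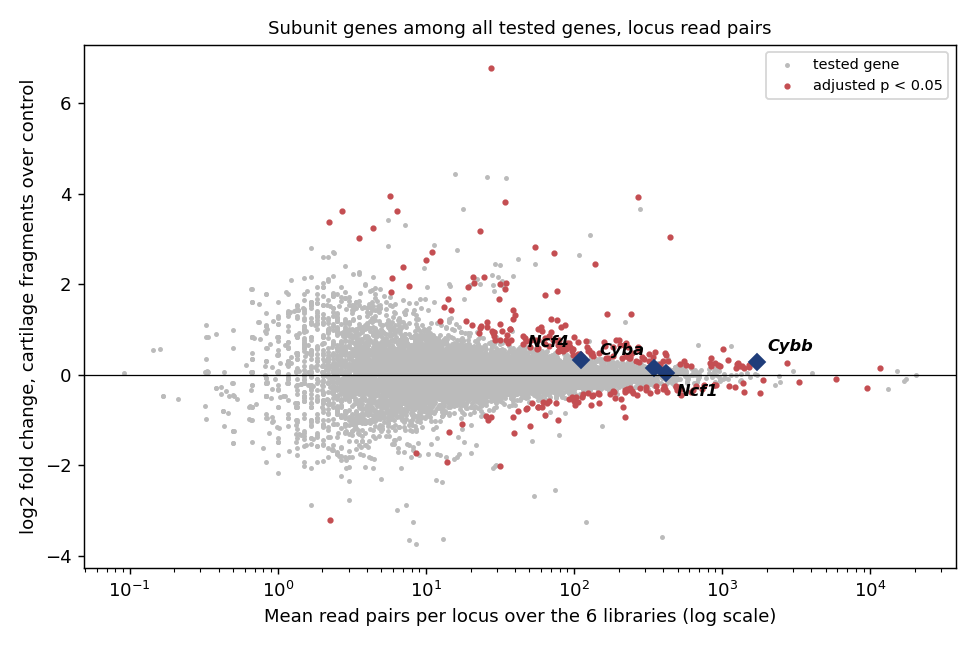
Mean estimated read pairs per locus over the 6 libraries (horizontal, log scale) against the log2 fold change of locus read pairs, cartilage fragments over control (vertical), for the tested genes, with genes past an adjusted p of 0.05 in red and the 4 subunit genes as blue diamonds. The scatter narrows with depth, and Cybb at a log2 fold change of 0.28 is past the threshold whereas Ncf4 at 0.33 with far fewer read pairs is not.

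Ratios of 2 subunit genes within a library do not depend on the library total, and all 6 pairs were compared by a two-sided exact permutation test, for which 3 against 3 libraries cannot give a p below 0.1. Cybb relative to Ncf1 was higher in each exposed library than in any control. The ratio of their FPKM was 2.095, 2.14 and 2.03 in controls and 2.56, 2.48 and 2.33 after exposure (difference 0.23 on the log2 scale, exact p = 0.1, 0.6 adjusted over the 6 pairs). In locus read pairs the difference was 0.23 again (exact p = 0.1, 0.3 adjusted), with a control SD of 0.04 and an exposed SD of 0.07. Ncf1 relative to Ncf4 was 2.103, 1.94 and 2.56 in FPKM in controls and 1.499, 1.68 and 2.07 after exposure, which overlap (exact p = 0.2). In locus read pairs this ratio was 4.24, 3.8996 and 4.21 in controls and 3.03, 3.399 and 3.72 after exposure, with no overlap (difference -0.29, exact p = 0.1, 0.3 adjusted). The ratio of Cybb to Ncf4 stayed close in locus read pairs, at 16.1, 15.1 and 15.4 against 14, 15.2 and 15.7 (difference -0.05, exact p = 0.5). In FPKM it varied more, at 4.41, 4.15 and 5.19 in controls and 3.84, 4.16 and 4.82 after exposure (difference -0.10, exact p = 0.6). Between the membrane partners, the ratio of Cybb to Cyba was 0.644, 0.553 and 0.521 in FPKM in controls and 0.964, 0.592 and 0.592 after exposure, and the high value is that of cartilage fragment replicate 1. In locus read pairs it was 5.35, 4.58 and 4.32 against 5.65, 4.97 and 4.87, which overlap (difference 0.12, exact p = 0.4). No pair passed after adjustment, and with 3 libraries a group none could.

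**Figure D4:**
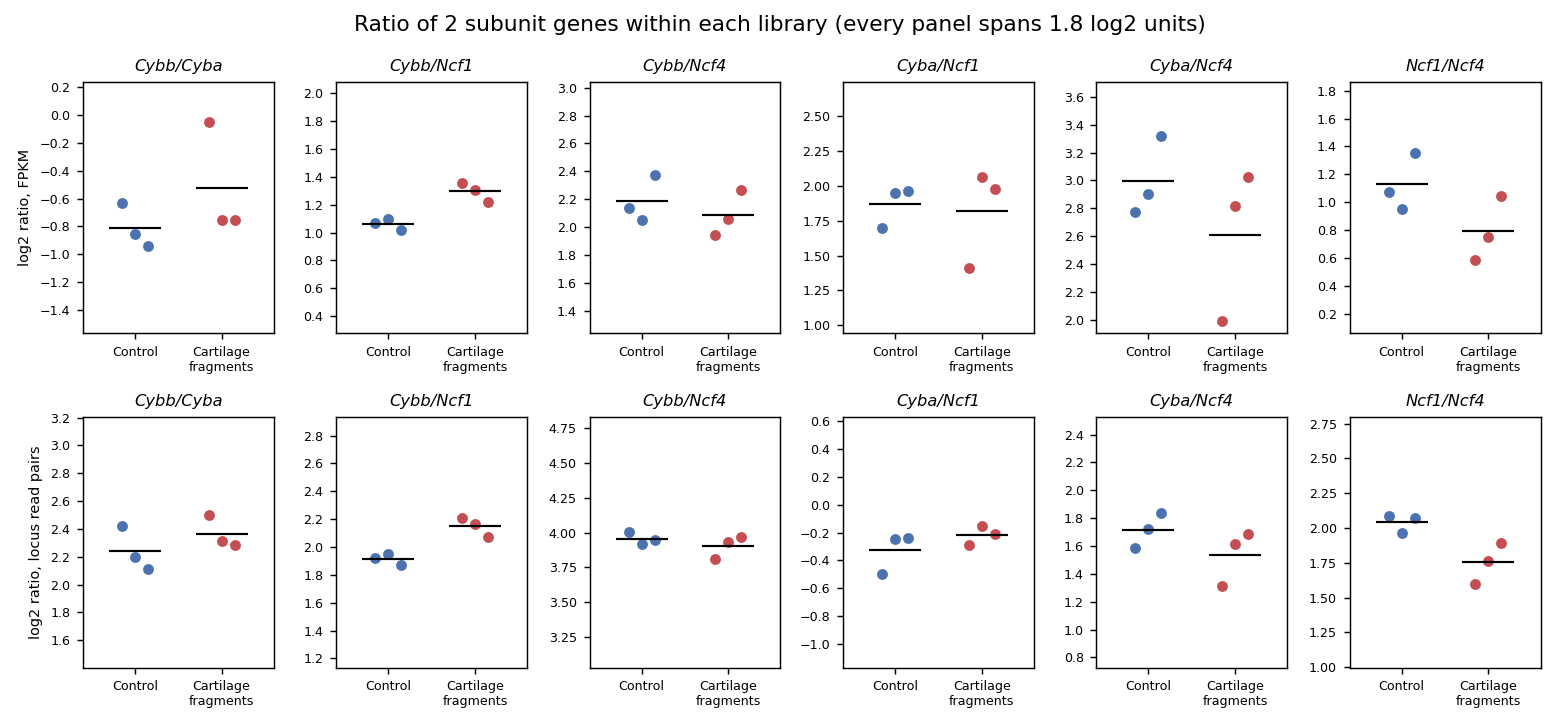
log2 ratio of 2 subunit genes (vertical axes, each spanning the same number of log2 units) in control (blue) and cartilage fragment (red) libraries, from FPKM in the upper row and from locus read pairs in the lower row, with the group mean as a line. Cybb over Ncf1 is separated between groups in both rows. The Cyba ratios of cartilage fragment replicate 1 stand apart in the upper row. In the lower row that library lies among the others for Cyba over Ncf1. It is still the highest for Cybb over Cyba, at 2.50, and the lowest for Cyba over Ncf4, at 1.31.

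Other parts of the complex were followed through Rac1, Rac2, BC017643 (the older symbol of Cybc1, a chaperone of the membrane core), Rap1a and the proton channel Hvcn1, which offsets the charge that the oxidase moves. Of these 5, all tested, 0 were called by limma in FPKM or in locus read pairs. The median log2 fold change was 0.05 in FPKM and 0.16 in locus read pairs, and 1 of 5 (Rac2) was higher without overlap between groups in read pairs, against 9.15% of tested genes. Rac1, the widely expressed GTPase, was at 131, 172 and 145 against 135, 136 and 146 FPKM (log2 fold change -0.101 in locus read pairs, adjusted p = 0.765). Rac2, the form of blood cells, had 239, 215 and 183 RPM in controls and 252, 271 and 259 after exposure (log2 fold change 0.30, SE 0.10, adjusted p = 0.13). In FPKM its log2 fold change was 0.52 with an adjusted p of 0.797, and control replicate 3 was low at 36.9 FPKM, with 58.6 read pairs on an assembled transcript. With the FPKM of assembled transcripts added, the log2 fold change of Rac2 was -0.07 (adjusted p = 0.95 by limma). Rac2 is also among the genes listed as raised by the study. Hvcn1 was listed at 0 FPKM in cartilage fragment replicate 1, where an assembled transcript held 161 read pairs. Assembled transcripts also held 93.7 and 93.3 read pairs in cartilage fragment replicates 2 and 3 and 58.8 in control replicate 1. The FPKM of Hvcn1 thus give no usable fold change. Its locus read pairs were 171, 158 and 229 RPM in controls and 213, 253 and 202.2 after exposure (log2 fold change 0.27, SE 0.12, adjusted p = 0.393).

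Cybb was the only one of the catalytic subunits Cybb, Nox1, Nox3, Nox4, Duox1 and Duox2 that was tested. Of 9 genes of the other family members and their partners, 0 reached a mean of 1 FPKM. Nox3, Nox4, Noxa1, Duox1, Duox2, Duoxa1 and Duoxa2 were at 0 in all 6 libraries, where a count of 0 allows up to 3.86 to 4.29 RPM, Nox1 reached at most 1.24 FPKM and Noxo1, the organizer of Nox1, 0.711 FPKM at most.

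**Figure D5:**
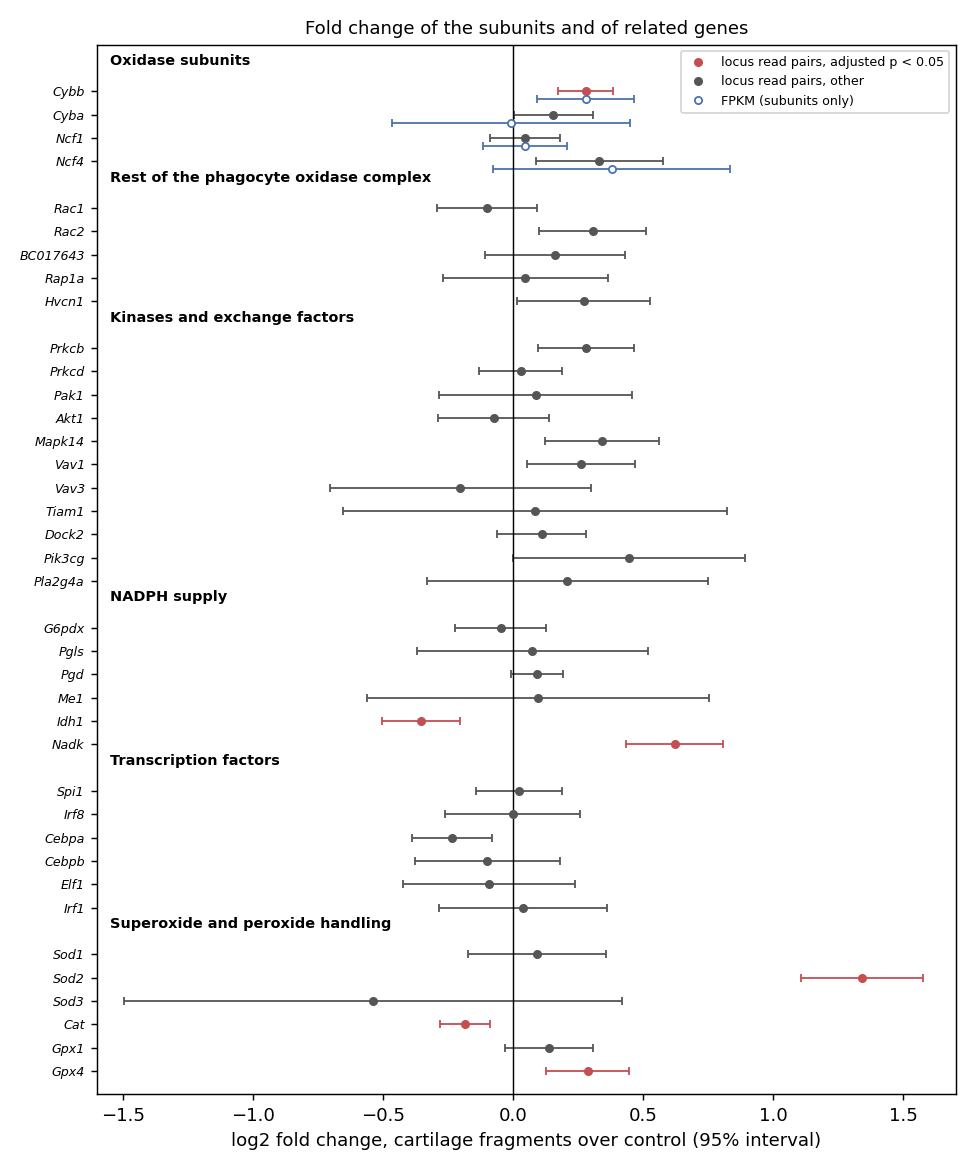
log2 fold change, cartilage fragments over control (horizontal), with 95% intervals for the subunit genes and the tested genes of the related lists. Filled points are locus read pairs, red where the adjusted p was under 0.05, and open blue points give the FPKM result of the subunit genes. Cybb, Nadk, Sod2 and Gpx4 are in red above 0, and Idh1 and Cat below 0.

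Among 13 kinases and exchange factors that act on the oxidase, 11 were tested and 0 passed in either measure, with a median log2 fold change of 0.11 in locus read pairs. Of the 11, 9 had a log2 fold change above 0 (50.6% of all tested genes), and 4 were higher without overlap between groups (9.15%). Prkcb, a protein kinase C that phosphorylates p47phox, had 288, 248 and 240.3 RPM in controls and 321, 312 and 306 after exposure (log2 fold change 0.28, SE 0.09, adjusted p = 0.117), and the study lists it as raised. Mapk14, the p38 kinase, had 183, 167 and 150.4 against 208, 219.9 and 204 (log2 fold change 0.34, SE 0.11, adjusted p = 0.1). Vav1, an exchange factor for Rac, had 197, 205 and 178 against 245, 239.6 and 211 (log2 fold change 0.26, adjusted p = 0.258). Prkcd, another kinase of p47phox, was level at 429, 388 and 404 against 455, 392 and 399.

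Genes that supply NADPH were not uniform. Of 6, all tested, 0 passed in FPKM, and in locus read pairs 1 was called higher (1.65% of tested genes) and 1 lower (0.86%). Nadk, the kinase that makes NADP from NAD, had 314, 283 and 266 RPM in controls and 475, 476 and 378 after exposure (log2 fold change 0.62, SE 0.09, adjusted p = 2.9e-05 by limma). It stayed past the threshold when each library was left out. Idh1, the cytosolic isocitrate dehydrogenase that makes NADPH, fell from 563, 560.1 and 509 to 455, 397 and 423 RPM (log2 fold change -0.36, SE 0.07, adjusted p = 0.0025 by limma), and without cartilage fragment replicate 2 its adjusted p was 0.0522. Both appear among the study's listed genes. The pentose phosphate enzymes G6pdx and Pgd, usually the main source of NADPH for the oxidase, had log2 fold changes of -0.05 and 0.09 (adjusted p = 0.892 and 0.498).

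Of 7 myeloid transcription factors known to act on oxidase genes, 6 were tested and 0 passed in either measure, with a median log2 fold change of -0.05 in locus read pairs. Spi1, which encodes PU.1, had 343, 347 and 326 RPM in controls and 363, 338 and 331 after exposure, and Irf8 had 119, 128 and 141 against 133, 116 and 139. Cebpa was lower in every exposed library, at 477, 481 and 525 against 432, 381 and 448 (log2 fold change -0.24, SE 0.08, adjusted p = 0.112). Of the 10352 tested genes, 754 were likewise lower without overlap between groups.

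Of 6 enzymes that remove superoxide and peroxide, 2 passed higher (1.65% of tested genes) and 1 lower (0.86%) in locus read pairs and 0 in FPKM. Sod2, the mitochondrial superoxide dismutase, rose from 149, 117 and 115 to 327, 362 and 279 RPM (log2 fold change 1.34, SE 0.11, adjusted p = 6.4e-10 by limma), and in FPKM the log2 fold change was 1.08 (SE 0.14, adjusted p = 0.103). The study lists it as raised in these libraries. Catalase (Cat) fell from 1822, 2052 and 2087 to 1747, 1678 and 1811 RPM (log2 fold change -0.19, SE 0.05, adjusted p = 0.0239 by limma), a call that held in 2 of the 6 fits that leave out a library. Gpx4, the peroxidase of lipid peroxides, was called higher in locus read pairs (log2 fold change 0.29, adjusted p = 0.0434 by limma). That call held in 0 of the 6 fits that leave out a library (adjusted p 0.054 to 0.219). The FPKM of Gpx4 gave the opposite sign (-0.46), with 451, 467 and 422 in controls and 120, 550 and 519 after exposure. With the FPKM of assembled transcripts added, the log2 fold change was 0.37 (adjusted p = 0.248 by limma). Sod1, the cytosolic dismutase, had a log2 fold change of 0.09 (adjusted p = 0.865).

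The genes whose FPKM pattern was most like that of each subunit were taken over the 6 libraries from 5110 other tested genes that averaged 10 FPKM or more, by Pearson's r on the log2 scale and as a description with no test. The libraries are 2 groups of 3, so a shared difference between groups is part of each value. For Cybb they were Rab32, Mt1 and Rbm18 (r = 0.988, 0.987 and 0.984). For Cyba they were Xylt2, Suds3 and Anxa7, for Ncf1 Rnaseh2c, Eif5b and Clta, and for Ncf4 Pgam1, Actr2 and Rpl38, with r from 0.9703 to 0.9896. No subunit gene was among the 3 nearest of another. In locus read pairs, only Xylt2 for Cyba and Rnaseh2c for Ncf1 were again among the nearest 3, and Tnfrsf14 and Abcc5 were among the nearest of both Cybb and Ncf4.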

How the data were processed

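RNA-seq was analysed in 3 control and 3 cartilage fragment libraries, each 1 sample of its group. Read pairs of 100 bp were mapped by the authors with Bowtie and TopHat (build mm10), and each library was then run through Cufflinks. The versions are not given in the sources used here. The deposited FPKM are values per transcript, with their bounds, and the deposited coverage is the mean read depth beside each. Low values had not been removed, and whether TMM scaling was applied could not be told.

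FPKM were summed per gene symbol. The 10352 genes whose mean was 1 FPKM or more entered a limma 3.58.1 fit (R 4.3.3) of log2(FPKM + 0.1), with a variance trend and robust moderation. Tests were two-sided, p-values were adjusted over all these genes by Benjamini-Hochberg, and the threshold was 0.05. Fold changes are on that log2 scale, which understates those of low genes. Read pairs were estimated as coverage times effective length over read length, and 95.01% to 95.99% of low values lay within 0.1 of a whole number. Locus read pairs add assembled transcripts that share the gene's locus identifier, with 0.5 added before log2. Estimates are least certain for the shortest transcripts. Intervals of log2 fold changes come from the limma fits and rest on the moderated spread between libraries. Error bars in the plot of RPM at each subunit locus cover counting error only. No read counts were used, as the files hold none. Samples were not treated as paired by replicate number, except where a replicate block is named. The fits were tested on simulated data. Tables, exact tests and figures used Python 3.11.15, numpy 2.4.6, pandas 2.3.3, scipy 1.17.1 and matplotlib 3.10.9.

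The genes and lists were chosen with earlier results of these data known. Named genes are the 4 subunit genes, members of 6 related lists and of the marker lists, and the 3 genes nearest to each subunit in pattern. Alternatives changed the pseudocount, filter, scaling, moderation, weights, replicate block and transcript lines, or left out each library. Locus measures were added after the values were seen. One gene of these lists is not reported here.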

Additional observations from a re-analysis of the deposited data

Results flagged for a closer look

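In cartilage fragment replicate 1, about 105 read pairs at the Cyba locus lay on transcripts assembled in that library alone, which the FPKM of the gene do not include. No other library of either group had any there. They amount to 29.9% of the read pairs at the locus in that library. The cause of the assembled transcripts was not tested.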

How the results depend on the processing

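The log2 fold changes of Cybb, Ncf1 and Ncf4 kept their sign in every alternative run. In FPKM no alternative brought a subunit gene past the threshold. Cybb passed in locus read pairs (0.28, adjusted p = 0.0029), in these with the replicate block (0.28, adjusted p = 3.8e-05) and without each library (0.24 to 0.34), but not in read pairs without assembled transcripts (0.28, adjusted p = 0.413). Without 1 library, the FPKM values ranged from 0.24 to 0.34 for Cybb, from 0.02 to 0.08 for Ncf1 and from 0.24 to 0.53 for Ncf4. Cyba changed sign: it was 0.15 in locus read pairs, with or without the replicate block, 0.48 in locus FPKM, between 0.10 and 0.19 in locus read pairs without 1 library and between -0.16 and 0.19 in FPKM without 1 library. The pair differences that changed sign were Cybb minus Cyba in locus FPKM (-0.20), Cyba minus Ncf4 in locus FPKM (0.11) and Cyba minus Ncf1 in locus FPKM (0.43) and in locus read pairs (0.11). Without 1 library, Cyba minus Ncf1 ranged from -0.18 to 0.15, the latter without cartilage fragment replicate 1.

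Of all tested genes, 15 were higher and 4 lower in FPKM. With a pseudocount of 0.01 there were 8 and 0 (667 at an unadjusted p under 0.05), with a mean of at least 5 FPKM 11 and 1, without trend and robust moderation 17 and 10, in locus FPKM 32 and 6, and in locus read pairs 171 and 89. Without 1 library there were 0 to 18 higher and 0 to 3 lower in FPKM. Locus read pairs gave 100 higher and 56 lower without cartilage fragment replicate 1. Without cartilage fragment replicate 2 they gave 103 and 60. No gene was called higher in FPKM by limma without cartilage fragment replicate 1 (628 at an unadjusted p under 0.05 in either direction) or without cartilage fragment replicate 2 (596). The cause was not tested.

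The replicate numbers recur in both groups. The deviations of same-numbered libraries had correlations of -0.0047 to 0.03 in FPKM over all tested genes. With 3 libraries a group, such values cannot tell whether same-numbered samples belong together. With the replicate block, 0 genes were higher and 0 lower in FPKM by limma (519 at an unadjusted p under 0.05), against 15 and 4, and in locus read pairs 156 and 85. The depth limits Ncf4 most, at about 100 read pairs a library.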
